A study of Mus musculus with 24 samples.

Results

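The genes described here make and break down the cyclic nucleotides cAMP and cGMP: the adenylyl cyclases (Adcy1 to Adcy10) and the phosphodiesterases (Pde1 to Pde11 families). They were taken by symbol, as every row of the RNA count table named Adcy plus a number or Pde plus a number and a letter, which gave 34 of 34039 genes, 10 cyclases and 24 phosphodiesterases. Nuclei came from the microdissected amygdala of adult male mice of 2 inbred strains from Jackson Laboratories, DBA and BL6, at 10 to 16 weeks of age. Each strain had 2 single-nucleus RNA libraries and 2 single-nucleus ATAC libraries, each from the pooled tissue of about 2 animals, and the libraries are called library 2 and library 3 after the count tables. RNA nuclei were sorted with the neuronal antibody NeuN to a fixed mix of neuronal and other nuclei, and ATAC nuclei on a DNA dye without NeuN. Methylation data of the series (16 libraries, 8 strains) are not used here.

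Adenylyl cyclases convert ATP to cAMP, and the membrane-bound members are switched by G proteins, calcium or both, so that receptors for dopamine, noradrenaline and neuropeptides act through them. Phosphodiesterases hydrolyse cAMP, cGMP or both and end the signal; their families differ in substrate and in what regulates them. In spiny neurons of the striatum and of the adjoining amygdala, dopamine receptors act on Adcy5, while Pde10a, Pde1b and Pde2a degrade the product. Levels are given as CPM, the gene's count divided by the total count of that cell type in that library and scaled to a total of 1000000. They are compared between cell types and strains for 1 gene at a time, since they are not scaled by length.

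RNA libraries held 32133813 and 50637086 counts from 2867 and 6276 nuclei in DBA, against 66304405 and 30693629 counts from 8079 and 4426 nuclei in BL6. Of 22 cell types, named by the authors, 20 had at least 10 nuclei in every library, at least 50000 counts there, and were tested. Exc-Strip2 and NN-Endo-SMC-Peri, with as few as 1 and 9 nuclei in a library, were not. Levels are ranked among the tested types. Non-neuronal nuclei made up 45.9% and 30.1% of the DBA libraries, against 36.6% and 53.0% of the BL6 libraries. In sums over all nuclei, fewer nuclei of a type and less RNA per nucleus cannot be told apart, so classes and single types are given beside them. The sum of 7 microglial markers was 5191 and 4788 CPM in NN-MGC of DBA, against 6879 and 6726 CPM in BL6. NN-Endo-VLMC went in part with its label. The sum of 4 leptomeningeal markers was 255 and 339 CPM in DBA, against 379.7 and 451 CPM in BL6, lower than in NN-VLMC in every library. Of 4 endothelial markers 2 were at 0, with a sum of 0 and 8.91 CPM in DBA, against 0 and 11.3 CPM in BL6. Foxp2, 1 of 3 markers of intercalated neurons, averaged 1504.5 CPM. Its values were 1505 and 1301 CPM in DBA, against 1898 and 1314 CPM in BL6. The sum of the 3 was 1555 and 1327 CPM in DBA, against 1989 and 1359 CPM in BL6. Nearly all of it was Foxp2. The sum of 3 astrocyte markers was 349 and 347 CPM in DBA, against 434 and 406 CPM in BL6. NN-Endo-VLMC is called by the authors' name only. Inh-Drd2 had 47 and 12 nuclei in DBA, against 111 and 66 nuclei in BL6. The p-values measure the spread between 2 pooled libraries per strain.

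Of the 4 members called over all nuclei, those with the largest log2 difference between strains there were Pde2a, which degrades cAMP and is stimulated by cGMP, Adcy10, the soluble cyclase driven by bicarbonate and calcium, and Pde6h, the inhibitory subunit of the cone phosphodiesterase. The 250 bases before their starts are shown because the RNA differences are set against ATAC peaks near these starts; the Adcy10 and Pde6h stretches themselves overlap no peak. RefSeq sequences on GRCm38.p6 (mm10), plus strand, 5′ to 3′, are given in lower case, with capitals for TGACG or its reverse complement CGTCA, a part of the cAMP response element TGACGTCA that CREB binds. The Pde2a stretches are 2 of its 5 RefSeq starts, chr7:101421441-101421690 and chr7:101450766-101451015. The other 2 are Adcy10 at chr1:165484933-165485182 and Pde6h at chr6:136954273-136954522.
Pde2a first start: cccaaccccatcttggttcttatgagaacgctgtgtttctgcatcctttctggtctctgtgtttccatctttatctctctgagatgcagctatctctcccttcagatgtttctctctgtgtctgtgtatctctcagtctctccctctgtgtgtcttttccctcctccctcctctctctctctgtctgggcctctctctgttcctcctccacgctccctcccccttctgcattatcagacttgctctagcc
Pde2a inner start: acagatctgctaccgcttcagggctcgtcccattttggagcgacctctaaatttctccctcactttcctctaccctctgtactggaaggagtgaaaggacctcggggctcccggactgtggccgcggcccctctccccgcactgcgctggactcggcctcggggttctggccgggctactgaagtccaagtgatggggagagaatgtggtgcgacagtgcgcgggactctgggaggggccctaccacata
Adcy10 start: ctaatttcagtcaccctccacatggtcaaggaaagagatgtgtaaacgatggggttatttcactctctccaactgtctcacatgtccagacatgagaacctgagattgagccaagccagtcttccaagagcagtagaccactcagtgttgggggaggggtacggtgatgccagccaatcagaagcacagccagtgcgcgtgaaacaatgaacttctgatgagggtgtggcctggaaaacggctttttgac
Pde6h start: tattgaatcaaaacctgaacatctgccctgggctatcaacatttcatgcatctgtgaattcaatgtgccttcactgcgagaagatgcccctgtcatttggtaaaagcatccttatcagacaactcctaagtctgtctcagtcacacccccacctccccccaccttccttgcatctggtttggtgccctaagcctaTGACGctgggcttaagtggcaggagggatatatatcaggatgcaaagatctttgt
Capitals appear only in the Pde6h stretch; those letters were not found in the other 3 windows. The 2 Pde2a stretches differ in base composition, with 50.8% G and C and 2 CG pairs in the first, and 61.6% G and C and 15 CG pairs in the inner one, and both lay under an ATAC peak. Among 25 members with RefSeq starts in hand, the full TGACGTCA element was found in 0 of 49 windows of 250 bases before a start, against 1.55% of 32851 starts of all genes. TGACG on either strand, which the full element also contains, was in 7 of the 49 windows (14.3%), against 17.8% of all starts. A match of letters is a description and not a site.

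Nearly every member was measurable somewhere in the amygdala, and some had a top type that stood clear of the next. Of the 34, 29 reached 20 CPM or more in at least 1 tested type (mean of 4 libraries). The other 5 stayed lower in every tested type. Adcy4, a cyclase of vessels, peaked at 13.2 CPM in NN-VLMC, and Pde4c, Pde6b, Pde6c and Pde6g peaked between 2.04 and 8.59 CPM. NN-Endo-SMC-Peri, where the endothelial marker Cldn5 averaged 481 CPM, was not among the tested types. In 8 of the 29 the lowest library of the top type was above the highest library of the next: Adcy1, Adcy7, Pde1b, Pde3b, Pde4b, Pde5a, Pde8a and Pde9a.

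Inh-Drd2, an inhibitory type named for the dopamine receptor Drd2, held the highest level of 8 members. Pde10a, which degrades both cyclic nucleotides in spiny neurons, was at 1489 and 1808 CPM in DBA, against 1625 and 2405 CPM in BL6, a mean of 1832 ± 404 CPM (SD, n = 4 libraries); Inh-Lamp5 followed at 1455 ± 330 CPM, so these neighbours did not differ beyond their spread. Pde1b, a calmodulin-dependent phosphodiesterase, was at 177 and 173 CPM in DBA, against 216 and 244 CPM in BL6, and stood clear of the next type, Inh-Zfhx3, at 46.5 ± 1.12 CPM. Adcy5, the calcium-inhibited cyclase of dopamine signalling, reached 389 ± 65.6 CPM, with NN-VLMC next at 288 ± 60.1 CPM. The cAMP-specific Pde7b reached 1135 ± 366 CPM and Pde8b, also cAMP-specific, 438 ± 128 CPM in Inh-Drd2. Pde1c, another calmodulin-dependent enzyme, reached 343 ± 154 CPM. Pde6a, a catalytic subunit of the rod phosphodiesterase, was at 40.9 ± 9.07 CPM, with Inh-Tshz1 next at 33.5 ± 5.89 CPM. Pde2a completed the 8 at 160 ± 167 CPM, with Exc-Tafa1 next at 117 ± 92.9 CPM, and its spread includes its strain difference. Pde6a and Pde2a were each highest in Inh-Drd2 in 2 of 4 libraries only. The values of Inh-Drd2 rest on few nuclei, and its Drd2 level was 23.2 and 145 CPM in DBA, against 136 and 135 CPM in BL6. The sum of 6 spiny projection markers was 694 and 856 CPM in DBA, against 1020 and 1147 CPM in BL6. That of 3 intercalated markers was 940 and 235 CPM in DBA, against 380 and 738 CPM in BL6. In DBA library 2 the intercalated sum was above the spiny sum. The part of this varying make-up in the levels was not tested.

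**Figure D1:**
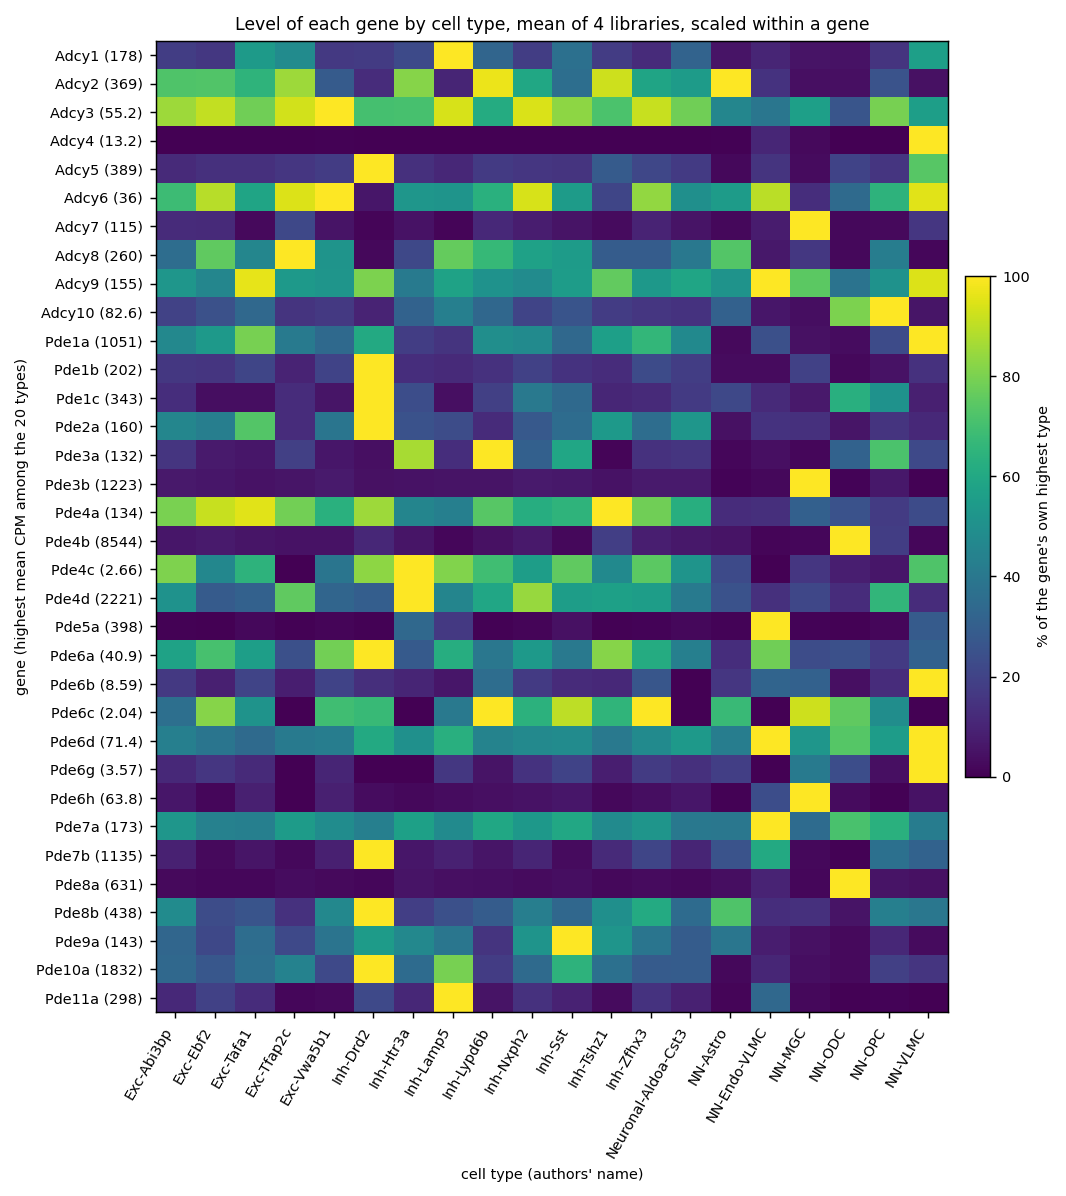
Level of each of the 34 genes (rows, with the highest mean CPM in brackets) in 20 cell types (columns), as a percentage of the gene's own highest type, from the mean of 4 libraries. Single bright cells mark Pde4b and Pde8a in NN-ODC, Pde3b and Adcy7 in NN-MGC, and Pde1b in Inh-Drd2, while Adcy3 and Pde6d are spread over many types.

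Glia and other types of the non-neuronal class held the tops of other members. Pde4b, a cAMP-specific phosphodiesterase with wide roles in brain and immune cells, was at 9391 and 9027 CPM in oligodendrocytes (NN-ODC) of DBA, against 8056 and 7703 CPM in BL6, and the next type, Inh-Tshz1, was at 1579 ± 138 CPM. Pde8a, a cAMP-specific enzyme of high affinity, was at 631 ± 55.3 CPM in NN-ODC, 10.1 times the next type. Both were highest there in 4 of 4 libraries. In microglia (NN-MGC), Pde3b, which cGMP inhibits, was at 1431 and 1283 CPM in DBA, against 1115 and 1065 CPM in BL6, 13.7 times its next type, and Adcy7, the main cyclase of blood cells, was at 115 ± 19.0 CPM, against 25.1 ± 12.1 CPM in Exc-Tfap2c. Adcy2, a cyclase stimulated by G protein beta-gamma subunits, was highest in astrocytes (NN-Astro) at 369 ± 17.7 CPM, but Inh-Lypd6b at 357 ± 39.7 CPM lay within the spread. Adcy10 was highest in oligodendrocyte precursors (NN-OPC) at 82.6 ± 60.3 CPM and in NN-ODC at 66.4 ± 35.1 CPM, and these spreads include its strain difference. Pde1a, calmodulin-dependent, was highest in NN-VLMC at 1051 ± 280.2 CPM and in Exc-Tafa1 at 836 ± 64.4 CPM, and Pde6d, a carrier of lipid-anchored proteins, was at 71.4 ± 28.1 CPM in NN-VLMC. NN-Endo-VLMC held the top level of Pde5a, specific for cGMP, at 398 ± 264 CPM, of Pde7a at 173 ± 118 CPM and of Adcy9, a widely expressed cyclase, at 155 ± 44.5 CPM. Adcy9 in Exc-Tafa1, at 149.5 ± 15.8 CPM, differed from that by less than the spread.

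Among neurons, the remaining members had their tops in single interneuron or excitatory types. Pde9a, a cGMP-specific enzyme, was at 152 and 164 CPM in Inh-Sst of DBA, against 124 and 134 CPM in BL6, with Inh-Drd2 next at 78.4 ± 18.1 CPM. Adcy1, a calcium-stimulated cyclase of synaptic plasticity, was at 178 ± 24.7 CPM in Inh-Lamp5, against 101 ± 39.3 CPM in NN-VLMC. Inh-Lamp5 also held the top of Pde11a, a dual-specificity enzyme known from the ventral hippocampus, at 298 ± 160 CPM. Pde4d, cAMP-specific, reached 2221 ± 287 CPM in Inh-Htr3a and Pde3a, inhibited by cGMP, 132 ± 65.9 CPM in Inh-Lypd6b. Adcy8, the second calcium-stimulated cyclase, was highest in Exc-Tfap2c at 260 ± 45.3 CPM, with Inh-Lamp5 at 199 ± 34.9 CPM. Adcy3, the cyclase of primary cilia, at 55.2 ± 6.05 CPM and Adcy6, which calcium inhibits, at 36.0 ± 2.33 CPM had their tops in Exc-Vwa5b1, and Pde4a, cAMP-specific, in Inh-Tshz1 at 134 ± 9.50 CPM, each within the spread of its next type. Pde6h, at 63.8 ± 36.4 CPM in NN-MGC, had a mean above 20 CPM in that type alone.

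By Pearson correlation of log2(CPM + 1) over the 20 types, the members whose patterns were most alike were Pde2a with Pde1b (r = 0.78), Pde2a with Pde10a (0.767) and Pde10a with Adcy3 (0.765), among 29 members. The most opposed patterns were Pde6d with Adcy8 and with Adcy2 (both -0.755), and Pde8a with Adcy3 (-0.747). The points of each correlation share the same 4 libraries and the same normalisation by type, so these values are descriptions.

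Inhibitory neurons held more RNA of many phosphodiesterases than excitatory neurons of the same libraries. With the library as a block, edgeR's quasi-likelihood test with Benjamini-Hochberg adjustment over all genes called 18 of 32 members tested, 13 higher and 5 lower in inhibitory neurons, at adjusted p under 0.05; 36.7% of all genes tested were called, and the authors formed these classes from the same nuclei. Pde4d was at 1408 ± 106 CPM in inhibitory and 795 ± 47.8 CPM in excitatory neurons (SD, n = 4 libraries each), a log2 difference of 0.78 ± 0.04 (SE, edgeR adjusted p = 4.43e-08). Pde1c, at 92.1 ± 18.8 CPM in inhibitory and 23.2 ± 4.78 CPM in excitatory neurons, had the largest difference, 1.89 ± 0.19 (edgeR adjusted p = 0.00345), and Pde3a followed with 37.0 ± 4.46 CPM in inhibitory and 11.3 ± 2.40 CPM in excitatory neurons. Both were higher in inhibitory neurons of 4 of 4 libraries. The other higher phosphodiesterases were Pde5a (log2 difference 1.16), Pde7b (1.01), Pde9a (0.58), Pde4b (0.54), Pde10a (0.38), Pde8a (0.36), Pde8b (0.28), Pde6d (0.21) and Pde7a (0.11). Adcy5 was the only cyclase called higher, at 92.9 ± 12.9 CPM in inhibitory and 57.9 ± 2.55 CPM in excitatory neurons (log2 difference 0.62). Lower in inhibitory neurons were the cyclases Adcy1 (-0.55), Adcy6 (-0.39) and Adcy9 (-0.26) and the phosphodiesterases Pde6h (-0.90) and Pde2a (-0.57). For Pde6h the difference lay in BL6, at 5.09 and 3.62 CPM in inhibitory and 9.14 and 9.86 CPM in excitatory neurons. In DBA the values were 0.490 and 0.737 CPM in inhibitory and 0.581 and 0.513 CPM in excitatory neurons, so library 3 went the other way. The median over the 32 members was 0.10, against 0.01 over all genes. Without the block, 12 members passed.

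**Figure D2:**
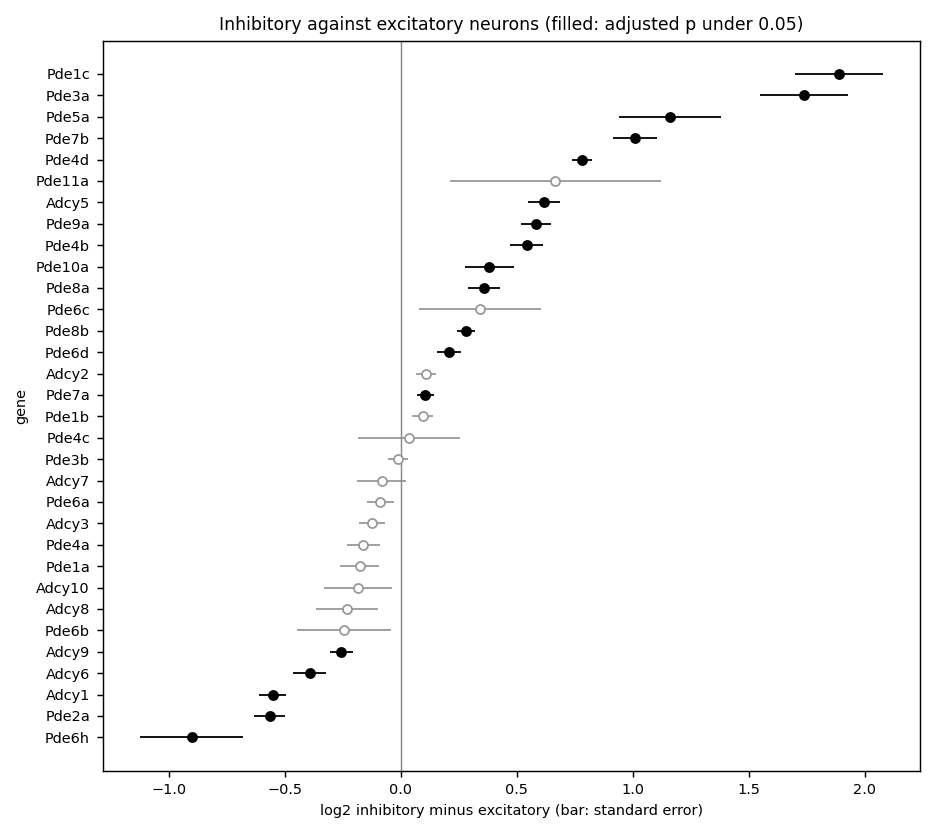
Log2 difference, inhibitory minus excitatory neurons, of the 32 members tested (rows), with the standard error as a bar and filled points at adjusted p under 0.05. Pde1c and Pde3a lie farthest to the right at 1.89 and 1.74, and Pde6h farthest to the left of the called members at -0.90.

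The strain comparison concerned the RNA level of each member in DBA and in BL6 nuclei. Over all nuclei, Pde2a, Adcy10, Pde6h and Pde11a were lower in DBA and no member was higher. These were 4 of 33 members tested, by edgeR's quasi-likelihood test at adjusted p under 0.05, where 4.88% of all genes tested were called; DESeq2 called 5. The median log2 difference of the members was -0.04, against -0.01 over all genes. In excitatory neurons 6 of 32 members were called, 2 higher and 4 lower (background 9.67%), in inhibitory neurons 4 of 32, all lower (8.62%), and in non-neuronal nuclei 5 of 31, 2 higher and 3 lower (8.25%). In single cell types 65 of 480 tests of a member in a type were called (5.78% of all such tests), 17 higher and 48 lower, and 36 with DESeq2. By type, with the share of all genes called in brackets, the excitatory calls were 4 of 29 in Exc-Abi3bp (6.79%), 3 of 25 in Exc-Ebf2 (2.46%), 7 of 30 in Exc-Tafa1 (7.42%), 0 of 16 in Exc-Tfap2c (0.974%) and 10 of 30 in Exc-Vwa5b1 (10.6%). The inhibitory calls were 1 of 22 in Inh-Drd2 (0.739%), 2 of 26 in Inh-Htr3a (3.2%), 2 of 25 in Inh-Lamp5 (1.76%), 0 of 27 in Inh-Lypd6b (1.4%), 5 of 29 in Inh-Nxph2 (7.32%), 3 of 29 in Inh-Sst (5.41%), 8 of 26 in Inh-Tshz1 (10.3%) and 5 of 30 in Inh-Zfhx3 (5.54%). The non-neuronal calls were 5 of 27 in NN-Astro (8.69%), 1 of 10 in NN-Endo-VLMC (5.81%), 2 of 19 in NN-MGC (5.37%), 4 of 22 in NN-ODC (8.09%), 3 of 26 in NN-OPC (6.27%) and 0 of 12 in NN-VLMC (0.565%), and Neuronal-Aldoa-Cst3 had 0 of 20 (0.673%). Pde2a, Adcy10 and Pde6h made 32 of the 65 calls, and the rest came to 7.47% of their tests. In all, 19 members were called in at least 1 cell type or class, and Adcy1, Adcy3, Adcy4, Adcy6, Adcy7, Adcy9, Pde1a, Pde1b, Pde3a, Pde4c, Pde6a, Pde6b, Pde6c, Pde6g and Pde7a in none.

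Pde2a was lower in DBA in every class and called lower in 15 of the 17 cell types that could be tested. Of the 15, 11 had 10 or more counts in each strain. Where DBA had fewer, entry to the test rested on BL6 counts, so the tally of types is not further support. Over all nuclei it was at 16.3 and 19.4 CPM in the DBA libraries, against 92.6 and 118 CPM in the BL6 libraries, so the groups lay far apart. The log2 difference was -2.50 ± 0.15 (SE, edgeR adjusted p = 0.000212). In excitatory neurons Pde2a was at 26.7 and 27.9 CPM in DBA, against 125 and 174 CPM in BL6, and in inhibitory neurons at 15.9 and 16.7 CPM in DBA, against 90.7 and 137 CPM in BL6. Both DBA libraries were below both BL6 libraries in each class, with log2 differences of -2.42 and -2.77. In the 11 called types with 10 or more counts in each strain the log2 difference ran from -3.37 in NN-OPC to -2.0 in Inh-Sst. Inh-Lypd6b and Neuronal-Aldoa-Cst3 did not pass, at -2.34 (edgeR adjusted p = 0.116) and -1.73 (0.126). Counts were low in glia of DBA, with 2 and 4 in NN-Astro, against 67 and 63 in BL6, 0 and 2 in NN-MGC, against 41 and 38 in BL6, and 0 and 3 in NN-ODC, against 36 and 29 in BL6. Non-neuronal minus excitatory nuclei, the strain difference of Pde2a differed by -1.08 ± 0.24 (log2, SE, edgeR adjusted p = 0.045), but DESeq2 did not call this (adjusted p = 0.246), and it did not pass without DBA library 2 (0.406) or DBA library 3 (0.140), over a range of log2 differences of -1.40 to -0.83. Whether it differed among the 20 types was tested with 19 interaction terms and did not pass (edgeR adjusted p = 0.201).

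Adcy10 was lower in DBA in every class and in 10 of 14 types tested. In non-neuronal nuclei it was at 19.7 and 16.8 CPM in DBA, against 70.2 and 58.6 CPM in BL6, a log2 difference of -1.71 ± 0.15 (SE, edgeR adjusted p = 4.16e-05). In excitatory neurons the values were 12.2 and 8.34 CPM in DBA, against 26.7 and 33.7 CPM in BL6, and in inhibitory neurons 11.96 and 11.15 CPM in DBA, against 22.8 and 22.6 CPM in BL6. The strains did not overlap in any class. In NN-OPC, where the gene was highest, it was at 32.5 and 28.7 CPM in DBA, against 140 and 129 CPM in BL6 (log2 difference -2.06, edgeR adjusted p = 4.89e-09). In Inh-Lamp5 it was at 43.2 and 27.9 CPM in DBA, against 44.9 and 26.5 CPM in BL6, where the strains overlapped. Over the 20 types the strain difference of Adcy10 varied (edgeR F-test of 19 strain-by-type terms, adjusted p = 0.0354). DESeq2 called it in 5 types, and 6 were called without BL6 library 2.

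Pde6h was lower in DBA neurons and higher in DBA microglia. In excitatory neurons it had 6 and 11 counts in DBA, against 237 and 106 counts in BL6, or 0.581 and 0.513 CPM against 9.14 and 9.86 CPM. The log2 difference was -4.11 ± 0.30 (SE, edgeR adjusted p = 3.56e-07), and in inhibitory neurons -2.79 ± 0.34 (0.000267). All 7 types in which Pde6h could be tested were called, 6 neuronal types lower and NN-MGC higher. Of the 6 lower types, 0 had 10 or more counts in each strain. Entry to the test there rested on BL6 counts, so the tally of types is not further support. In NN-MGC it had 58 and 46 counts in DBA, against 50 and 18 counts in BL6, or 98.0 and 90.9 CPM against 42.9 and 23.4 CPM, a log2 difference of 1.5 ± 0.28 (SE, edgeR adjusted p = 0.00053). The call in NN-MGC did not pass without DBA library 2 (0.0627). The difference between classes was itself tested: non-neuronal minus excitatory gave 4.84 ± 0.42 (SE, edgeR adjusted p = 0.000332; 0.0711 without DBA library 2), and over the types the adjusted p was 9.98e-11. Over all nuclei the gene was at 2.40 and 1.48 CPM in DBA, against 6.86 and 5.80 CPM in BL6 (adjusted p = 0.0207), which did not pass without DBA library 3 (0.140). Free RNA in neuronal droplets was not measured, and its part in counts this low was not tested.

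**Figure D3:**
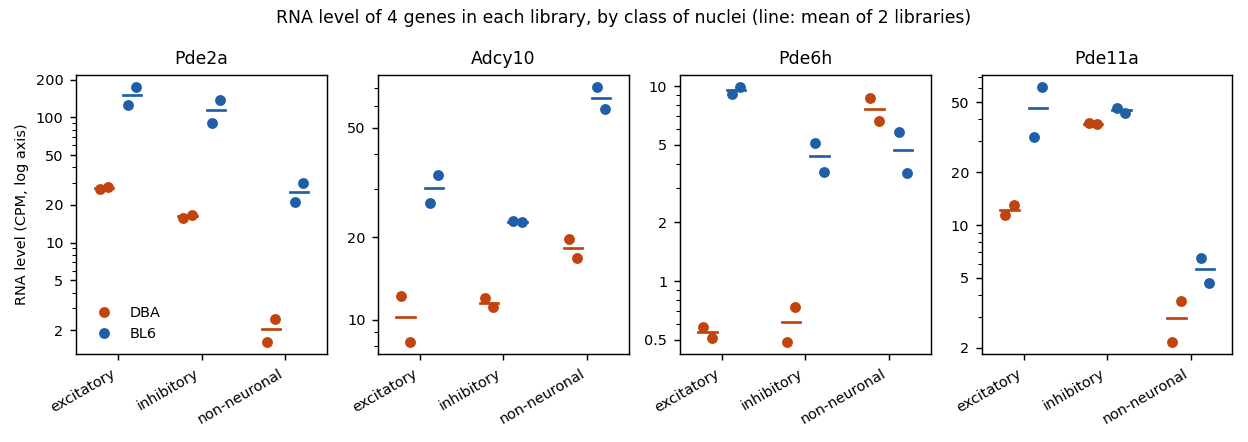
RNA level (CPM, log axis) of Pde2a, Adcy10, Pde6h and Pde11a in each library of DBA (left of each pair) and BL6, in 3 classes of nuclei, with the mean of 2 libraries as a line. The DBA points of Pde2a and Adcy10 lie below the BL6 points in all 3 classes. Those of Pde6h lie below in neurons and above in non-neuronal nuclei, where the difference was not called (edgeR adjusted p = 0.164).

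Pde11a differed in direction between cell types. In Exc-Tafa1, an excitatory type, it had 21 and 10 counts in DBA, against 411 and 514 counts in BL6, or 5.15 and 1.80 CPM against 47.4 and 98.2 CPM. The log2 difference was -4.41 ± 0.56 (SE, edgeR adjusted p = 0.00874), which did not pass without DBA library 2 (0.166) or DBA library 3 (0.285). In Inh-Lamp5, its top type, it was at 171 and 152 CPM in DBA, against 403 and 466 CPM in BL6 (log2 difference -1.39, edgeR adjusted p = 0.00127). Exc-Ebf2 and Exc-Abi3bp were also lower, by -1.35 and -0.73. In Inh-Tshz1 the gene was higher in DBA, at 12.1 and 13.0 CPM, against 5.45 and 5.40 CPM in BL6 (log2 difference 1.25, edgeR adjusted p = 0.00332; 0.0955 with DESeq2). The strain difference varied over types (edgeR adjusted p = 0.000266). The call over all nuclei, at 21.1 and 22.1 CPM in DBA against 33.5 and 38.1 CPM in BL6, did not pass without DBA library 2 (0.141), DBA library 3 (0.134) or BL6 library 3 (0.0572), and that in excitatory neurons (log2 difference -1.86) did not without DBA library 2 (0.503) or DBA library 3 (0.502). The excitatory markers Slc17a7 and Slc17a6 summed to 343 and 373 CPM in Exc-Tafa1 of DBA, against 274 and 326 CPM in BL6. The sum of 4 endothelial markers was 5.15 and 4.13 CPM in Exc-Tafa1 of DBA, against 64.1 and 58.3 CPM in BL6. Other neuronal types had a like shift, such as Inh-Nxph2 at 5.19 and 9.30 CPM in DBA, against 50.2 and 39.0 CPM in BL6. Of the 4 endothelial markers, Flt1 overlapped between strains in Exc-Tafa1, at 1.23 and 1.44 CPM in DBA, against 1.15 and 1.72 CPM in BL6. Cldn5 was under 1 CPM there in each library. The shift of the sum in Exc-Tafa1 lay in the remaining markers, Pecam1 and Tek. Its part in the Pde11a difference was not tested.

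Among the other cyclases, Adcy8 was higher in the non-neuronal sum and in NN-Astro of DBA. In non-neuronal nuclei it was at 149.9 and 145 CPM in DBA, against 90.4 and 105 CPM in BL6, a log2 difference of 0.71 ± 0.12 (SE, edgeR adjusted p = 0.00311; 0.0788 without DBA library 2). It was higher in NN-Astro, at 236 and 207 CPM in DBA, against 155 and 166 CPM in BL6, and in Inh-Tshz1, at 96.6 and 95.6 CPM in DBA, against 51.0 and 60.1 CPM in BL6. NN-OPC (log2 difference 0.45, edgeR adjusted p = 0.0594) and NN-MGC (0.86, 0.120) did not pass. In Exc-Tafa1 it was lower, at 103 and 63.0 CPM in DBA, against 160 and 151 CPM in BL6 (log2 difference -0.87, edgeR adjusted p = 0.027), a call that leaving out DBA library 3, BL6 library 2 or BL6 library 3 ended (0.065, 0.195 and 0.130). The strain difference varied over the types (edgeR adjusted p = 1.35e-08) and between non-neuronal and excitatory nuclei (0.89 ± 0.12, edgeR adjusted p = 0.00485). Adcy2 was higher in non-neuronal nuclei, at 228 and 228 CPM in DBA, against 174 and 194 CPM in BL6 (log2 difference 0.42, edgeR adjusted p = 0.0366), but not with scaling by total counts (0.0849) or without DBA library 2 (0.274), DBA library 3 (0.227) or BL6 library 2 (0.0826). No single non-neuronal type passed, with log2 differences of 0.23 in NN-Astro and 0.47 in NN-OPC (edgeR adjusted p = 0.292 and 0.0537). Adcy2 averaged 369 CPM in NN-Astro and 14.5 CPM in NN-ODC, and NN-ODC had 1104956 and 969635 counts in DBA, against 2697769 and 1541050 counts in BL6; the part of this mix was not tested. Adcy2 was called lower in Exc-Vwa5b1 (-0.34) and Adcy5 higher in Inh-Tshz1 (0.42).

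The cAMP-specific Pde4 genes differed in few types. Pde4d was higher in NN-ODC of DBA, at 425 and 358 CPM, against 166 and 182 CPM in BL6, a log2 difference of 1.32 ± 0.15 (SE, edgeR adjusted p = 1.54e-08), which held under every alternative in NN-ODC with adjusted p from 1.13e-15 to 5.78e-06. It was lower in Exc-Vwa5b1 (-0.29) and Inh-Nxph2 (-0.33), and its strain difference varied over the types (edgeR adjusted p = 6.93e-05). The inhibitory markers in NN-ODC summed to 10.0 and 39.2 CPM in DBA, against 54.9 and 33.7 CPM in BL6. Those of excitatory neurons summed to 14.5 and 20.6 CPM in DBA, against 30.8 and 22.1 CPM in BL6. The part of neuronal RNA in the Pde4d counts of NN-ODC was not tested. Pde4b was called higher in NN-ODC (0.37) and NN-OPC (0.31) and lower in Inh-Zfhx3 (-0.40); in NN-ODC it lost the call with DESeq2 (adjusted p = 0.0966), with total counts (0.118) and in 3 of 4 leave-outs. Pde4a was higher in excitatory neurons, at 122 and 129 CPM in DBA, against 84.0 and 105 CPM in BL6 (log2 difference 0.44, edgeR adjusted p = 0.0235), but not without DBA library 3 (0.0717) or BL6 library 2 (0.233). It was called in Exc-Tafa1 (0.71) and Exc-Vwa5b1 (0.34), and varied over types (edgeR adjusted p = 0.012).

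The cGMP-specific Pde9a was higher in DBA neurons of several types. In excitatory neurons it was at 56.8 and 59.0 CPM in DBA, against 42.9 and 42.0 CPM in BL6, a log2 difference of 0.47 ± 0.11 (SE, edgeR adjusted p = 0.00953; 0.0564 without DBA library 3). Exc-Tafa1 (0.77), Exc-Vwa5b1 (0.46) and Inh-Tshz1 (0.36) were called higher, and the F-test over types passed (edgeR adjusted p = 0.0485). Of the cAMP-specific genes outside the Pde4 family, Pde7b was lower in inhibitory neurons, at 144 and 127 CPM in DBA, against 204 and 201 CPM in BL6 (log2 difference -0.56, edgeR adjusted p = 0.00215), with calls in Inh-Tshz1 (-0.49) and Inh-Nxph2 (-0.44). Pde8a was lower in non-neuronal nuclei, at 102 and 96.7 CPM in DBA, against 173 and 152 CPM in BL6 (log2 difference -0.60, edgeR adjusted p = 0.00718; 0.0971 without DBA library 2 and 0.122 without DBA library 3). Within NN-ODC, its top type, it did not pass, at 566 and 627 CPM in DBA, against 629 and 701 CPM in BL6 (log2 difference -0.01, edgeR adjusted p = 0.977). That class held 224 and 288 NN-ODC beside 632 and 1012 NN-Astro nuclei in DBA, against 766 and 449 NN-ODC beside 1184 and 1072 NN-Astro nuclei in BL6, and the part of this mix was not tested. In NN-Astro Pde8a was called lower, at 12.3 and 14.2 CPM in DBA, against 30.7 and 37.2 CPM in BL6 (-1.23, edgeR adjusted p = 0.000445). The 5 oligodendrocyte markers moved with it there, at a sum of 63.7 and 70.0 CPM in NN-Astro of DBA, against 207 and 176 CPM in BL6, and their part was not tested.

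Calls in 1 or 2 types were left for 6 members, named after their values were seen. Pde5a was higher in NN-Endo-VLMC, at 703 and 534 CPM in DBA, against 163 and 192 CPM in BL6 (log2 difference 1.89, edgeR adjusted p = 0.0158), where it had 127 and 60 counts in DBA, against 9 and 34 counts in BL6. The sum of 3 inhibitory markers there was 55.3 and 98.0 CPM in DBA, against 18.1 and 28.2 CPM in BL6, and its part was not tested. Pde5a was lower in Exc-Vwa5b1 (-1.0). Its strain difference varied over types (edgeR adjusted p = 0.00275) and between non-neuronal and excitatory nuclei (1.97 ± 0.33, edgeR adjusted p = 0.0158; 0.304 without DBA library 2 and 0.115 without DBA library 3). Pde1c was lower in NN-Astro (-0.81) and Inh-Zfhx3 (-0.76), and Pde8b in NN-ODC (-1.04), at 14.5 and 13.4 CPM in DBA, against 34.1 and 29.2 CPM in BL6. Pde10a was higher in Exc-Abi3bp (0.41) and lower in Inh-Tshz1 (-0.31). Pde3b (0.36) and Pde6d (0.50) were higher in Exc-Vwa5b1. All 9 members whose difference varied over the 20 types were named above, of 31 tested; 6.75% of genes tested were called there. The types of a library share its preparation, so those p-values rest on the spread between types within 4 libraries.

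**Figure D4:**
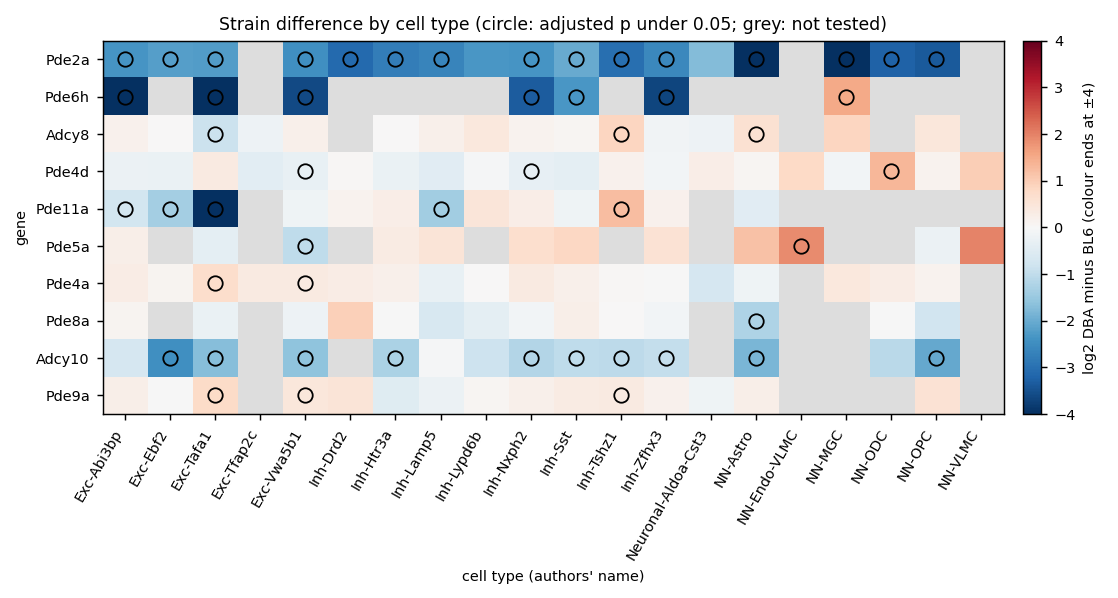
Log2 difference, DBA minus BL6, of Pde2a and the 9 members whose difference varied over types (rows) in 20 cell types (columns), with red for higher in DBA and blue for lower. Circles mark adjusted p under 0.05 and grey marks types not tested; Pde2a and Adcy10 are blue in every called type, while Pde6h, Pde11a, Adcy8, Pde4d and Pde5a have circles of both colours.

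Between inhibitory and excitatory neurons, edgeR's quasi-likelihood test found 0 of 32 members whose strain difference itself differed (background 0.167%), with 9 at an unadjusted p under 0.05 and 0 by DESeq2; 2 passed without DBA library 2, 1 without BL6 library 2 and 3 without BL6 library 3. Between non-neuronal and excitatory nuclei 4 of 32 passed, 3 higher and 1 lower (background 2.13%): Pde6h, Pde5a, Adcy8 and Pde2a. Without DBA library 2 none of the 4 passed, with 0 members in all, and without DBA library 3 Pde6h alone did.

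Other genes of the pathway were counted from lists by role. Of the guanylyl cyclases, which make cGMP, 1 of 10 tested was called over all nuclei, 1 of 9 in excitatory neurons, 1 of 9 in inhibitory neurons and 1 of 8 in non-neuronal nuclei, where 4.88%, 9.67%, 8.62% and 8.25% of all genes were called. Npr2, the receptor cyclase for C-type natriuretic peptide, was at 40.4 and 35.8 CPM in DBA over all nuclei, against 25.4 and 28.5 CPM in BL6 (log2 difference 0.55, edgeR adjusted p = 0.0486), and was also called in excitatory (0.56) and inhibitory neurons (0.51). Gucy2e, a receptor cyclase of the retina, was lower in non-neuronal nuclei, at 0.136 and 0.275 CPM in DBA, against 3.61 and 2.06 CPM in BL6. Of 8 PKA and PKG subunits, 11 other cyclic nucleotide effectors, 7 G protein alpha subunits, 14 anchoring proteins and 3 nitric oxide synthases, those that could be tested gave 0 calls with edgeR in all nuclei and in the 3 classes. Of 8 transcription factors and phosphatase regulators downstream of PKA, Ppp1r1a, an inhibitor of protein phosphatase 1 that PKA activates, was lower in DBA, at 11.9 and 12.6 CPM, against 35.7 and 46.0 CPM in BL6 over all nuclei (log2 difference -1.69, edgeR adjusted p = 0.00114), in excitatory (-1.82) and in inhibitory neurons (-1.65).

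Open chromatin was compared between strains at the members' starts. ATAC libraries held 80428902 and 66535381 counts in DBA, against 72453812 and 86927891 counts in BL6. Within 2 kb of a start, or of either gene end where no strand was in hand (9 members), 51 peaks lay at 29 members, and 1 was called, 1.96% against 6.44% of all peaks. It spans chr17:31385271-31387177 at an end of Pde9a, at 33.7 and 30.4 CPM in DBA, against 25.7 and 27.1 CPM in BL6 (log2 difference 0.32 ± 0.10, SE, edgeR adjusted p = 0.0273). DESeq2 did not call it (0.0555), nor did the test without DBA library 2 (0.318), BL6 library 2 (0.678) or BL6 library 3 (0.233). None of the 5 Pde2a peaks within 2 kb was called. The peak over its first start, chr7:101420842-101422067, was at 28.1 and 24.5 CPM in DBA, against 23.3 and 23.7 CPM in BL6 (log2 difference 0.21, edgeR adjusted p = 0.277), and that over its inner starts, chr7:101449976-101451583, at 23.9 and 22.2 CPM in DBA, against 25.1 and 24.2 CPM in BL6 (-0.05, 0.883). These 2 peaks cover the printed Pde2a stretches, and a p that misses the threshold does not show that their openness was alike. The Adcy10 peak nearest its start, chr1:165485706-165486458, was at 1.94 and 2.18 CPM in DBA, against 3.13 and 2.43 CPM in BL6 (-0.38, edgeR adjusted p = 0.139).

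Within 10 kb, 11 of 156 peaks were called (7.05%), beside 6.44% of all peaks. Of these, 5 were higher in DBA, 1 each at Adcy6, Pde2a and Pde10a and 2 at Pde9a, and 6 were lower, 1 each at Adcy6, Pde4d, Pde6c and Pde8b and 2 at Pde6h. Those given with values were chosen after the values were seen. At Pde2a, 1 of 13 peaks was called, chr7:101461964-101462186, at 3.63 and 3.397 CPM in DBA, against 2.86 and 2.59 CPM in BL6 (log2 difference 0.42, edgeR adjusted p = 0.0449). It was higher in DBA, where the RNA of Pde2a was lower. At Pde6h, whose start had no peak within 2 kb, both called peaks were lower in DBA. The peak chr6:136946898-136947294 was at 0.808 and 1.17 CPM in DBA, against 3.11 and 2.98 CPM in BL6 (log2 difference -1.59, edgeR adjusted p = 3.85e-17), and chr6:136957074-136957570 at 0.622 and 0.661 CPM in DBA, against 1.38 and 1.29 CPM in BL6 (-1.01, 0.000315; 0.0623 with DESeq2). Non-neuronal nuclei were 1.81% and 2.97% of the DBA ATAC libraries, against 2.01% and 2.41% in BL6, so these sums are nearly all neuronal.

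**Figure D5:**
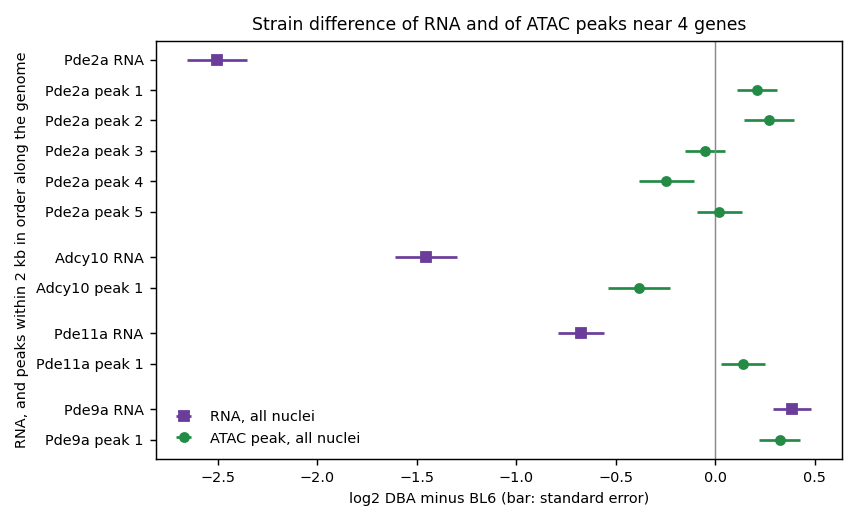
Log2 difference, DBA minus BL6, of RNA over all nuclei (squares) and of each ATAC peak within 2 kb (circles, in order along the genome) at Pde2a, Adcy10, Pde11a and Pde9a, with the standard error as a bar. The Pde2a square lies at -2.50 while its 5 peaks lie between -0.25 and 0.27.

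Across 15 cell types with both assays, the level of RNA and the summed openness of peaks within 2 kb had a median Pearson r of 0.55 over 29 members, with 16 above 0.5 and 5 below 0. The points share libraries and type names, and this is a description. Pde3a (r = 0.96), Pde1a (0.94) and Adcy8 (0.84) were the highest. Adcy10 (-0.18) and Pde4d (-0.19) were the lowest. Among these 15 types, the top type was the same in both assays for 4 members, Pde1a, Pde5a, Pde4a and Pde3b. NN-ODC, NN-Astro, NN-VLMC and NN-Endo-VLMC were not among the 15. The RNA tops ranked here were thus Exc-Tafa1 for Pde1a and Inh-Htr3a for Pde5a. Among all 20 tested types they were NN-VLMC and NN-Endo-VLMC. At Pde3b, NN-MGC led in both.

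With every gene of the table in the test, 24.0% of genes were called over all nuclei, against 4.88% of genes with 10 or more counts in each strain. Whether the gene models of single members differ by strain was not tested. All 34 members had 10 or more counts in each strain. No other gene in the count table overlaps Pde2a, Pde6h or Pde11a in RefSeq. Several members overlap pseudogenes with counts in DBA and 0 in both BL6 libraries. The most counts were those of Gm15425 at Pde10a, 1027 and 1625 in DBA and 0 and 0 in BL6. Gm7979 at Adcy2 had 69 and 80 counts in DBA and 0 and 0 in BL6, and Gm17229 at Pde7b had 40 and 46 counts in DBA and 0 and 0 in BL6. Whether reads of these members went to the pseudogenes in DBA was not tested. Pde8a overlaps the pseudogene Gm7180, counted 154 and 66 times in DBA and 0 and 0 times in BL6. Pde8a itself had 1171 and 1375 counts in DBA, against 2936 and 1730 counts in BL6, and the part of Gm7180 was not tested. Pde5a overlaps the noncoding gene 4930447N08Rik, which had more counts than Pde5a itself in DBA, 842 and 626 against 514 and 489, and in BL6, 1139 and 467 against 584 and 313, and reads of the pair could not be told apart without the strand setting.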

How the data were processed

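Single-nucleus RNA and ATAC libraries of DBA and BL6 amygdala were analysed from the deposited tables, in which the authors give counts per gene or per peak as sums for every cell type within a library. Per the submitters' processing notes, Cell Ranger 6.0.2, Seurat 4.0.5 and Cell Ranger ATAC 2.0.0 were used with mm10. Filters on nuclei, doublet treatment, the way types were named in each strain and the peak caller are not given in the sources used here. Columns were matched to strains by name. Their library numbers, 2 and 3, differ from the 1 and 2 of the sample titles, so which sample is which within a strain is not known, and the strain alone was used.

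Counts were summed over classes of nuclei and tested with the robust quasi-likelihood test of edgeR 4.0.16 in R 4.3.3, with TMM scaling, filterByExpr at a minimum count of 10 and Benjamini-Hochberg adjustment over all features tested, at a threshold of 0.05. Genes with at least 10 counts in each strain entered. Inhibitory and excitatory neurons were compared with the library as a block. Differences of the strain effect over types were tested with 19 interaction terms, a test added after the data had been seen. Alternatives were RLE and total-count scaling, no filter, every gene, DESeq2 1.42.0, each library left out, and the library number as a block. The test was checked on simulated counts. Peaks were assigned within 2 kb of a RefSeq start for 25 members, and of either end of the gene for 9. Promoter sequences are those of RefSeq. The members and lists were chosen with earlier results of these data known. Members called in all nuclei or a class are named with every library's value, then those called in 3 or more single types, and all members with 20 or more CPM in a tested type are named for their levels. Other calls were named after their values were seen. With 2 libraries per strain, intervals cover only the spread between them.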

Additional observations from a re-analysis of the deposited data

Results flagged for a closer look

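These results drew attention because the strain difference itself differed between cell classes or among cell types. Non-neuronal minus excitatory nuclei gave a log2 difference between the DBA-minus-BL6 effects of 4.84 for Pde6h, 1.97 for Pde5a, 0.89 for Adcy8 and -1.08 for Pde2a. None of the 4 passed when DBA library 2 was left out. Over 20 cell types, edgeR's test of the interaction terms gave an adjusted p of 9.98e-11 for Pde6h, 1.35e-08 for Adcy8, 6.93e-05 for Pde4d, 0.000266 for Pde11a, 0.00275 for Pde5a, 0.012 for Pde4a, 0.0144 for Pde8a, 0.0354 for Adcy10 and 0.0485 for Pde9a. With a single library left out, 5 to 6 of these tests passed.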

How the results depend on the processing

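No direction reversed under any alternative run. Over all nuclei, 4 members were called, against 7 with every gene in the test, where the share of all genes called was 24%, beside 4.88%, and 2 to 4 with a library left out. In excitatory neurons 6 were called, and 3 to 8 with a library left out, and in non-neuronal nuclei 5, and 2 to 6. The difference of strain effects between inhibitory and excitatory neurons gave 0 calls, 1 with no filter and 0 to 3 with a library left out, and that between non-neuronal and excitatory nuclei 4, and 0 to 7. Single types gave 65 calls, 36 with DESeq2 and 53 to 63 with a library left out. The test over types gave 9, and 5 to 6. Of ATAC peaks within 2 kb, 1 was called, 2 with total counts, 0 with DESeq2, 0 to 4 with a library left out and 11 within 10 kb. The causes were not tested. Over 22155 genes in all nuclei, the difference of library 2 minus library 3 in DBA correlated with that in BL6 at -0.247. Whether library numbers pair the samples cannot be read from this, since the share of non-neuronal nuclei also differed between libraries. With the replicate block, 2 members were called over all nuclei and 0 ATAC peaks, and with the crossed pairing, added after the data were seen, 8 members and 2 peaks. Low counts limit Pde6h in neurons and Pde2a in glia, and 2 libraries per strain limit every strain test.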
